A study of Homo sapiens with 10 samples.

Results

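The additional loss of MUTYH in cells that already lack OGG1 was read from 4 of the 10 RNA-seq libraries of the series: DKO clones 4 and 14, which lack both DNA glycosylases, against OGG1 knockout clones 1 and 22. The libraries were taken by the genotype in their labels, not by any measured value. All 4 came from untreated HAP1 cells, a human line with mostly single chromosomes that descends from leukaemia cells, edited with CRISPR-Cas9, and each library came from 1 clone. The series also holds 2 WT clones, 2 MUTYH knockout clones and the same 2 WT clones 24 hours after 100 µM H2O2, which are used here to place the difference. The untreated ones also enter the fit that estimates the spread. With 2 clones per genotype, differences between clones and the loss of MUTYH cannot be fully told apart.

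8-oxoguanine is the main oxidation product of guanine in DNA, and it can pair with adenine during replication. OGG1 is the glycosylase that removes 8-oxoguanine opposite cytosine, and MUTYH removes the adenine that was placed opposite 8-oxoguanine. Both enzymes start base excision repair, each at its own mispair. Cells that lack OGG1 and MUTYH have lost both of these starting enzymes, while NUDT1 (MTH1) still clears the oxidised nucleotide from the pool.

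The OGG1 edit is shown because it defines what the compared groups share. The guide that the study's clone table lists for OGG1 matched GRCh38 at chr3:9750311-9750330 on the minus strand, in the coding part of exon 1. The guide is in lower case and the PAM that follows it in the genome in capitals.

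OGG1 guide: gtacgatgccccatgcgcctGGG

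The clone table lists a deletion of 5 bases for the first OGG1 clone and of 8 bases for the second, whose product number ends in 22. Both DKO clones are listed with that second clone as parent and with the same deletion of 8 bases. OGG1 knockout clone 22 is thus the closest relative of both DKO clones in the series. The guide for MUTYH is not used here.

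The transcripts of the targeted genes did not separate the groups. OGG1 was at 9.75 and 9.80 CPM (counts scaled to the library size, with TMM factors) in DKO clones 4 and 14, at 1.23 CPM in OGG1 knockout clone 1 and at 11.2 CPM in clone 22. The DKO clones were therefore close to clone 22 and far from clone 1. The log2 fold change (log2FC) of OGG1 was 0.65 ± 0.76 (SE; edgeR adjusted p = 1), and -0.20 against clone 22 alone, while it was 2.98 without clone 22. MUTYH was at 4.81 and 2.2 CPM in DKO and at 5.43 and 3.63 CPM in the OGG1 knockout clones. Its groups overlapped, with a log2FC of -0.37 ± 0.42 (SE; edgeR adjusted p = 1), which was -1.04 without DKO clone 4 and 0.07 without DKO clone 14. MUTYH counts are thus no check of the genotype labels. Both genes overlap neighbours on the other strand (CAMK1 and TADA3; TOE1), and the strand setting of the counting is not stated.

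Total counts of the 4 libraries ranged from 22225091 to 22458937. Genes with any count numbered 27245 and 26388 in DKO clones 4 and 14 and 26349 and 25965 in OGG1 knockout clones 1 and 22. Mitochondrial genes took 7.46% and 4.25% of the counts in DKO clones 4 and 14 and 6.59% and 4.38% in OGG1 knockout clones 1 and 22. The share thus followed clones 4 and 1 on one side and 14 and 22 on the other. The same pairs shared expression differences: across 17881 genes the difference between DKO clones 4 and 14 correlated with that between OGG1 knockout clones 1 and 22 (Pearson r = 0.446, across genes, which are not independent replicates). Clones 4 and 1, and 14 and 22, are also compared as matched pairs. This pairing was noted earlier in these counts, so the correlation describes it and is no separate check. The labels name no batch for this pairing. Of the markers that could tell another cell type, 6 of 8 mesenchymal genes were at 6.53 CPM or more in every one of the 4 libraries, with VIM at 309 to 400.0 CPM. Epithelial markers were mixed. CDH1 had 0 to 2 counts and KRT19 0 or 1. However, 5 of 7 epithelial markers were tested. They summed to 107.7 and 98.0 CPM in DKO clones 4 and 14 and to 78.8 and 106.7 CPM in OGG1 knockout clones 1 and 22. Only 2 of 10 haematopoietic markers passed the filter on low counts, CD34 and TAL1, and PTPRC, SPI1 and HBG1 had 0 to 2 counts.

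The main comparison asked which transcripts change when MUTYH is lost in cells without OGG1. It gave 258 differentially expressed genes (DEGs), 189 higher and 69 lower in DKO. A DEG had a log2FC beyond 1 in either direction and, before adjustment, a P of 0.05 or less, which is the study's criterion. The background was 1.06% of 17881 tested genes for higher and 0.386% for lower. No gene passed Benjamini-Hochberg adjustment with edgeR, while 469 genes had a P of 0.05 or less before adjustment. The DESeq2 Wald test gave 12 genes after adjustment. The 2 clones of a group are separate clones, but they are 2 per group, and both DKO clones share a listed parent. Of the 258 DEGs, 74 had a mean under 1 CPM in both groups. Over all tested genes the DKO libraries lay wholly above the OGG1 knockout libraries for 12.5% and wholly below for 11.9%. They did not overlap for 250 of the 258 DEGs, but these same libraries chose the DEGs, so this follows largely from the choice.

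The excess of higher genes rested in part on DKO clone 4. Without it there were 194 DEGs, of which 77 (39.7%) were higher. Without DKO clone 14 there were 315, with 72.7% higher. Within matched pairs, however, the excess was seen on both sides. Clone 4 had 706 genes over 2-fold higher and 406 over 2-fold lower than clone 1, and clone 14 had 594 over 2-fold higher and 423 over 2-fold lower than clone 22. In both pairs alike 203 genes were over 2-fold higher and 45 over 2-fold lower, while 70 moved over 2-fold in opposite directions.

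**Figure D1:**
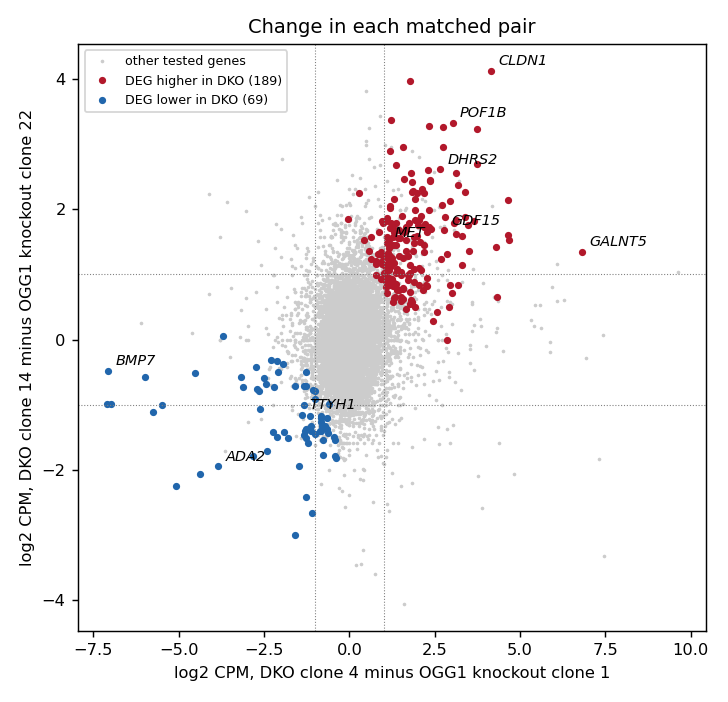
Change of each tested gene in the 2 matched pairs, as log2 CPM of DKO clone 4 minus OGG1 knockout clone 1 (x axis) and of DKO clone 14 minus OGG1 knockout clone 22 (y axis). Dotted lines mark a 2-fold change, and of the DEGs (coloured) 122 of 189 higher and 27 of 69 lower ones passed it in both pairs, while BMP7 and GALNT5 moved mostly in the pair of clones 4 and 1.

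With the pairs as a block in a fit of the 4 libraries alone, 497 genes were DEGs and 108 passed adjustment, 72 higher and 36 lower. Of the 108 genes, 55 were among the 258 DEGs. This fit has 1 residual degree of freedom, and the pairing is not in the labels but was noted earlier in these counts, when the comparison was set up. In the fit of all 8 untreated libraries with the same 2 sets as a block the DEGs numbered 369. None passed adjustment with edgeR, and 1355 genes had a P of 0.05 or less before it. The pair fit put CLDN1 first (edgeR adjusted p = 1.46e-05), followed by PROM1 (edgeR adjusted p = 3.57e-05, chosen after its values were seen) and POF1B (edgeR adjusted p = 0.000413).

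MET, the receptor tyrosine kinase for hepatocyte growth factor (chr7:116672196-116798377), had the smallest P. It was at 89.3 and 105 CPM in DKO clones 4 and 14 against 41.3 and 37.6 CPM in OGG1 knockout clones 1 and 22. The groups did not overlap, and the WT and MUTYH knockout libraries lay between, at 54.0 to 61.9 CPM. Its log2FC was 1.30 ± 0.15 (SE; edgeR adjusted p = 0.854, the smallest over all genes in this comparison). In the pair fit the edgeR adjusted p was 0.00162.

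DHRS2, a mitochondrial and nuclear short-chain dehydrogenase (chr14:23630115-23645639), was at 13.8 and 11.3 CPM in DKO and at 2.10 and 1.77 CPM in the OGG1 knockout. Its log2FC was 2.69 ± 0.36 (SE; edgeR adjusted p = 0.918). GDF15, a secreted stress cytokine of the TGF-beta superfamily (chr19:18374731-18389176), was at 6.44 and 4.44 CPM in DKO and at 0.868 and 1.33 CPM in the OGG1 knockout, where it had 19 and 30 counts. Its log2FC was 2.30 ± 0.37 (SE; edgeR adjusted p = 1). In both genes the DKO libraries also stood above all WT and MUTYH knockout libraries, the highest of which had 4.0 CPM for DHRS2 and 0.558 CPM for GDF15.

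POF1B, an actin-binding protein of epithelial junctions (chrX:85277396-85379717), was at 9.57 and 25.2 CPM in DKO and at 1.10 and 2.43 CPM in the OGG1 knockout. The DKO clones differed from each other, but within pairs the change was alike, with log2 differences of 3.03 for clones 4 and 1 and 3.32 for clones 14 and 22. ZDHHC15, a palmitoyltransferase (chrX:75368427-75523502), was at 7.03 and 4.35 CPM in DKO against 1.64 and 1.15 CPM. Here the OGG1 knockout stood apart, since WT and MUTYH knockout libraries had 4.84 to 6.39 CPM, values between those of the 2 DKO clones. NRCAM, a neuronal cell adhesion molecule (chr7:108147623-108456717), was at 8.44 and 5.50 CPM against 1.74 and 1.55 CPM, and EPHA6, an ephrin receptor (chr3:96814581-97761532), at 3.54 and 2.51 CPM against 0.183 and 0.310 CPM. Their log2FC was 2.08 ± 0.39 and 3.58 ± 0.64 (SE; edgeR adjusted p = 1 for each). EPHA6 rested on 4 and 7 counts in the OGG1 knockout.

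The other genes among the 10 higher ones with the smallest P had few counts in the OGG1 knockout. DNAH3, an axonemal dynein heavy chain (chr16:20933111-21159441), had 52 and 45 counts in DKO against 6 and 4. SYT13, an atypical synaptotagmin (chr11:45240302-45286341), had 29 and 27 counts against 1 and 4, and EGR2, a zinc finger transcription factor induced by growth factors (chr10:62811996-62819167), 23 and 25 against 5 and 3. In each the counts of the DKO clones were close to each other and the groups were far apart. For these 10 genes the log2FC stayed above 1 with each library left out in turn. Of them, 9 passed adjustment in the pair fit, which has 1 residual degree of freedom, with EGR2 at an edgeR adjusted p of 0.0828. The same libraries chose these genes for a small P and non-overlapping groups, so both results follow largely from that choice.

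**Figure D2:**
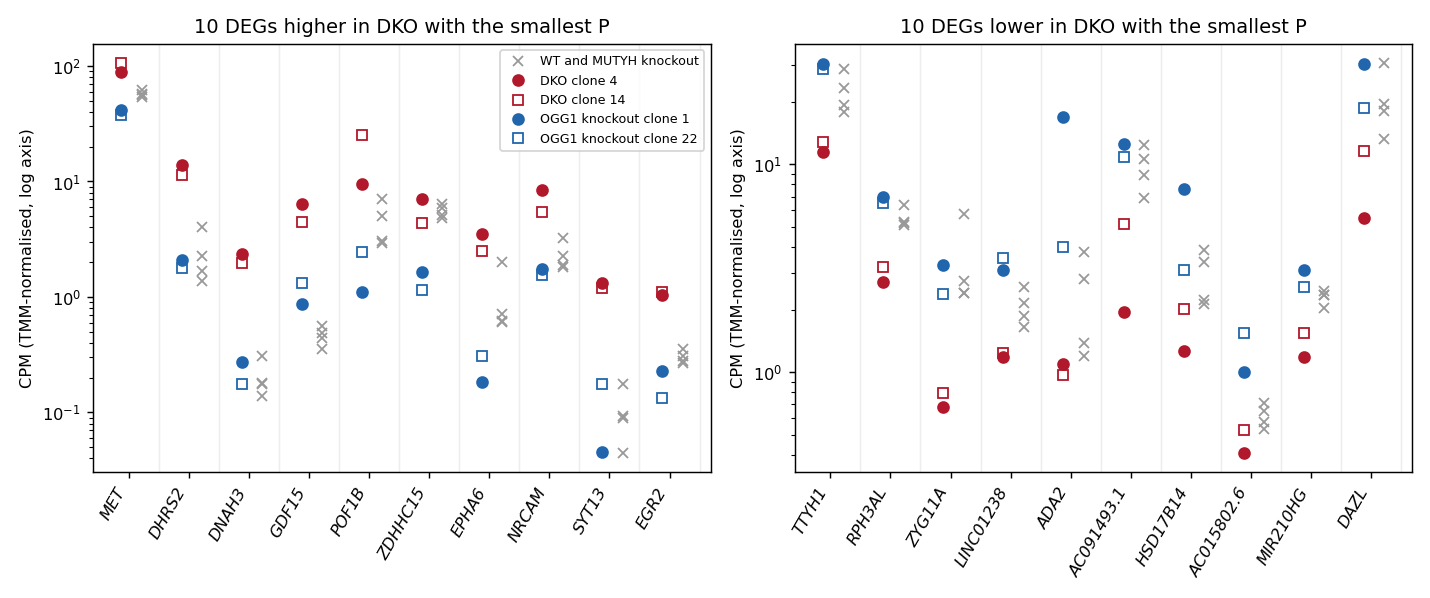
CPM on a log axis of the 10 DEGs per direction with the smallest P, non-overlapping groups and a mean of at least 1 CPM in either group. Each red or blue point is 1 DKO or OGG1 knockout library (circles for clones 4 and 1, squares for clones 14 and 22), and grey crosses are the WT and MUTYH knockout libraries. Both DKO libraries stood above every other library for each of the 10 higher genes except ZDHHC15. For ZDHHC15 the WT and MUTYH knockout libraries lay between the 2 DKO clones.

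The 3 higher DEGs with the largest log2FC, among those with a log2FC also beyond 1 against clone 22, had the highest level of the 4 libraries in DKO clone 4. In all 3 the OGG1 knockout libraries lay below both WT libraries. The log2FC of DKO against WT was 1.08 for CLDN1, -0.17 for GALNT5 and 0.48 for CHL1. CLDN1, the tight junction protein claudin-1 (chr3:190305707-190322446), was at 55.5 and 11.5 CPM in DKO clones 4 and 14 and at 3.01 and 0.575 CPM in OGG1 knockout clones 1 and 22. It was at 8.82 and 22.8 CPM in WT clones 11 and 2 and at 0.279 and 7.35 CPM in MUTYH knockout clones 7 and 8. Its log2 difference was 4.16 in one pair and 4.13 in the other, so the spread between clones was mostly spread between pairs. The log2FC was 4.22 ± 1.43 (SE; edgeR adjusted p = 1), 2.68 without DKO clone 4 and 3.47 without OGG1 knockout clone 22, and in both cases no longer a DEG. GALNT5, which starts O-glycan chains in the Golgi (chr2:157257705-157318491), was at 35.5 and 0.703 CPM in DKO and at 0.228 and 0.221 CPM in the OGG1 knockout. Its log2FC of 6.30 ± 2.58 (SE; edgeR adjusted p = 1) fell to 1.62 without DKO clone 4. CHL1, a neural cell adhesion molecule (chr3:196763-409417), was at 9.12 and 1.27 CPM against 0.274 and 0.221 CPM. It was at 5.57 and 1.86 CPM in WT clones 11 and 2 and at 1.21 and 13.25 CPM in MUTYH knockout clones 7 and 8. Its log2FC of 4.36 fell to 2.34 without DKO clone 4. Both lost the call also without either OGG1 knockout clone, with log2FC of 6.27 to 6.32 for GALNT5 and 4.21 to 4.51 for CHL1.

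Among genes lower in DKO, TTYH1, a chloride channel of neural cells (chr19:54415219-54436904), had the smallest P. It was at 11.5 and 12.9 CPM in DKO and at 30.3 and 28.7 CPM in the OGG1 knockout, a log2FC of -1.28 ± 0.25 (SE; edgeR adjusted p = 1). WT and MUTYH knockout libraries had 18 to 28.8 CPM, all above DKO, and the highest of them reached OGG1 knockout clone 22. RPH3AL, a Rab effector of secretion (chr17:212389-386254), was at 2.72 and 3.21 CPM against 6.99 and 6.55 CPM, with a log2FC of -1.19 ± 0.25 (SE; edgeR adjusted p = 1). ZYG11A, a substrate receptor of a cullin ubiquitin ligase (chr1:52842511-52894998), was at 0.680 and 0.791 CPM against 3.29 and 2.39 CPM, below all WT and MUTYH knockout libraries, which had at least 2.40 CPM. TTYH1, RPH3AL, ZYG11A and the non-coding LINC01238 kept a log2FC below -1 with each library left out. The same libraries chose these genes, so this follows largely from the choice.

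The others of the 10 were less even. ADA2, a secreted adenosine deaminase (chr22:17178790-17258235), was at 1.09 and 0.967 CPM in DKO, but at 16.9 CPM in OGG1 knockout clone 1 and 3.98 CPM in clone 22, and its log2FC of -3.33 became -1.95 without clone 1. AC091493.1, a gene known here only by its clone-based name, was at 1.95 and 5.14 CPM in DKO against 12.5 and 10.8 CPM, and its log2FC of -1.72 became -2.60 without DKO clone 14. HSD17B14, a 17-beta-hydroxysteroid dehydrogenase, was at 1.27 and 2.02 CPM against 7.58 and 3.10 CPM. DAZL, a germ cell RNA-binding protein, was at 5.53 and 11.7 CPM against 30.3 and 18.7 CPM, and MIR210HG, the host transcript of miR-210, at 1.18 and 1.54 CPM against 3.11 and 2.57 CPM. HSD17B14, DAZL and MIR210HG lost the call without DKO clone 4 (log2FC of -1.40, -1.07 and -0.88) and without OGG1 knockout clone 1 (-0.91, -1.12 and -0.92). AC015802.6 lost it without DKO clone 4 (-1.27) and without OGG1 knockout clone 22 (-1.09).

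Because both DKO clones descend from clone 22, DEGs were also read against that clone. Of the 189 higher DEGs, 176 (93.1%) had a log2FC beyond 1 against clone 22 alone, and of the 69 lower DEGs 50 (72.5%). Beyond 1 against each OGG1 knockout clone alone were 157 of the 189 and 41 of the 69. Both clones were in the group that chose the DEGs, so these shares are a description and no separate test. A fit without clone 1 gave 375 DEGs (2.0% of 18790 tested genes), 269 higher and 106 lower. That number was 176 without DKO clone 4 and 759 without DKO clone 14.

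Some of the lower DEGs separated clone 1 from the other 3 libraries and not DKO from the OGG1 knockout. The following genes were chosen after their counts were seen, as at most 3 counts in some and at least 30 in the others of the 4 libraries. SLC19A3, a thiamine transporter (chr2:227683763-227718028), had 0 and 0 counts in DKO, 2 in clone 22 and 245 in clone 1. DKO was at least 42.0-fold below the mean of the OGG1 knockout, taking 3 counts per library as the floor, but against clone 22 both sides were at or under that floor. S100A6, a calcium-binding protein, had 1 and 0 counts in DKO, 1 in clone 22 and 187 in clone 1. With MKRN3 these made 3 reported genes near 0 in DKO and clone 22 that clone 1 expressed, and all 3 were lower DEGs. BMP7 and EFS, named by the rule, were similar in shape. BMP7, a bone morphogenetic protein (chr20:57168753-57266641), was at 0.317 and 1.63 CPM in DKO, 2.30 CPM in clone 22 and 54.6 CPM in clone 1, and its log2FC of -4.86 ± 1.60 (SE; edgeR adjusted p = 1) became -1.23 without clone 1. EFS, an adaptor of Src family kinases (chr14:23356403-23365752), was at 0.136 and 0.176 CPM in DKO, 0.487 CPM in clone 22 and 12 CPM in clone 1, and its log2FC of -5.27 became -1.61. Neither was a DEG without clone 1. BMP7 lost the call also without DKO clone 4 (-4.12), and EFS without either DKO clone (-5.11 and -5.47).

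In the other direction 14 genes were near 0 in clone 1 but expressed in clone 22 and in both DKO clones. GABRA5, a subunit of the GABA-A receptor, had 0 counts in clone 1, 788 in clone 22 and 1547 and 1635 in DKO clones 4 and 14. HOTAIR, a long non-coding RNA of the HOXC cluster, had 0 counts in clone 1, 299 in clone 22 and 340 and 316 in DKO, and its neighbour HOXC11 had 1, 184, 174 and 181. FZD10, a Wnt receptor, had 0, 200, 82 and 233. None of the 14 was a DEG. The mirror patterns, in which DKO would go with clone 1 against clone 22, held 0 genes. Likewise 0 genes were near 0 in both clones of one group and expressed in both clones of the other. Over all 17881 tested genes, however, log2 CPM of DKO clone 4 correlated at 0.978 with clone 1 and at 0.970 with clone 22. DKO clone 14 correlated at 0.9709 with clone 1 and at 0.9852 with clone 22. Outside these 4 libraries the 17 reported genes varied as well, and 4 of them had at least 30 counts in all WT and MUTYH knockout libraries. TAL1, an erythroid transcription factor, is not one of them, since it was at 2.28 CPM in clone 1, but it too differed from the other 3 libraries, which had 30.1 to 34.8 CPM.

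**Figure D3:**
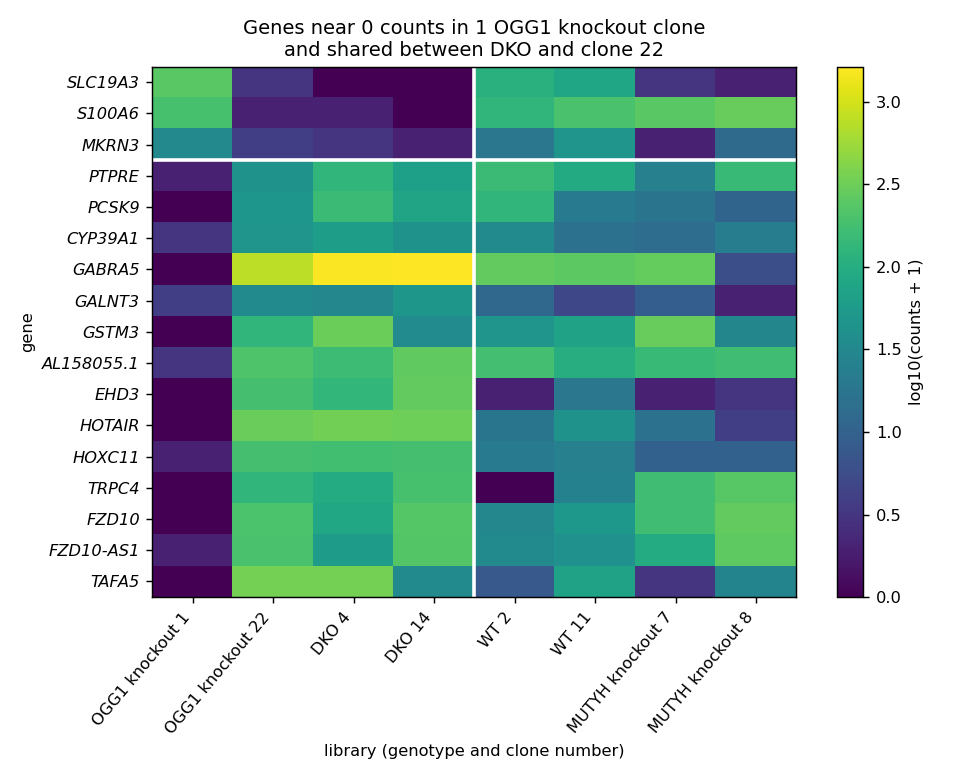
Counts, as log10(counts + 1), of the 17 reported genes that had at most 3 counts on one side and at least 30 on the other among the 4 libraries, with WT and MUTYH knockout libraries to the right of the white line. In the upper 3 genes DKO and clone 22 are near 0, and in the lower 14 clone 1 is near 0, so that DKO goes with clone 22 in all 17.

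Gene lists were then read one by one, each by its count of DEGs and its median, beside a median log2FC of -0.01 over all tested genes. Over all tested genes 1.06% were higher DEGs and 0.386% lower DEGs, the shares to set beside each count. The repair list came first, since the edit removes one of its members. All 30 of 30 genes of 8-oxoguanine and base excision repair were tested, and none was a DEG, with a median log2FC of -0.06. NUDT1, which hydrolyses oxidised purine nucleotides, was at 15.3 and 24.4 CPM in DKO and 18.9 and 30.4 CPM in the OGG1 knockout. The glycosylases NEIL1, NEIL2 and NTHL1, which also act on oxidised bases, had log2FC of -0.08, -0.42 and -0.37, the abasic endonuclease APEX1 -0.01 and PARP1 0.10. Of the 30 genes, 1 lay wholly above and 3 wholly below in DKO, beside 12.5% and 11.9% of all tested genes. The lists of S phase (34 genes) and of G2 and M phase (30 genes) also held no DEG, with medians of -0.01 and 0.00.

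Replication-dependent histone genes, whose transcripts are made in S phase and mostly end in a stem-loop in place of a poly(A) tail, had the highest list median. Of 49 listed, 19 passed the filter on low counts, and 5 of the 19 were higher DEGs and none a lower one. Their median log2FC was 0.78, with 0.93 in the pair of clones 4 and 1 and 0.62 in the pair of clones 14 and 22. The summed level of the 19 genes was 48.0 and 41.5 CPM in DKO clones 4 and 14, 24.6 and 26.4 CPM in OGG1 knockout clones 1 and 22, 16.2 and 25.8 CPM in WT clones 2 and 11, and 34.4 and 24.5 CPM in MUTYH knockout clones 7 and 8. Both DKO libraries thus stood above the 6 other untreated ones. The S phase list had sums of 6010 and 5881 CPM in DKO and 5976 and 5575 CPM in the OGG1 knockout. Genes that passed the filter only through the group where they are high had to differ, so the count over 19 is a description. How the RNA was selected for the libraries is not stated in the sources used here.

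H4C9, a histone H4 gene (chr6:27139282-27139678), was at 5.80 and 6.37 CPM in DKO and 2.65 and 2.92 CPM in the OGG1 knockout, a log2FC of 1.13 ± 0.31 (SE; edgeR adjusted p = 1). It kept the call with each library left out. H4C8 was at 2.72 and 1.71 CPM against 1.14 and 0.354 CPM. The H2B genes H2BC7, H2BC8 and H2BC11 had log2FC of 2.14, 1.37 and 1.22 on 11 to 61 counts in DKO and 2 to 20 in the OGG1 knockout. H2BC12, which was not in the list and was seen later, was at 11.8 and 11.6 CPM against 4.93 and 6.06 CPM, a log2FC of 1.09 ± 0.33 (SE; edgeR adjusted p = 1). The number of DEGs in the list was 3 without DKO clone 4, where H2BC11 had 0.69 and H4C8 1.19, and 4 without DKO clone 14, where H2BC8 had 1.20. It was 3 without either OGG1 knockout clone. H2BC8 (1.18) and H2BC11 (1.24) lost the call without clone 1, and H2BC7 (1.86), H2BC11 (1.20) and H4C8 (0.95) without clone 22, where H1-2 was a DEG instead. With single libraries left out the median of the list lay between 0.56 and 1.04.

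The H2B genes share the octamer ATTTGCAT, known as the binding site of POU2F1 (OCT1), and their promoters are shown because the 4 H2B DEGs all hold it. The RefSeq promoter table for GRCh38.p14 had a promoter for 11561 of the 17881 tested genes, and the 250 bases before the start site were searched on both strands. The octamer was in 1.66% of all 27305 promoters, in 1.34% of those of tested genes and in 9 of the 19 tested histone promoters. It was in 4 of 124 promoters of higher DEGs (3.23%), which are the 4 below. The share was alike for lower DEGs, at 1 of 32 (3.12%). It also stood in H2B promoters whose genes were no DEGs, such as H2BC4 (log2FC of 0.50) and H2BC21 (1.10). A match is a description of the letters. Each window of 30 bases is given 5′ to 3′ on the strand of the gene, with the octamer in capitals.

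H2BC7 (chr6:26199394-26199423, plus strand): agaatcacctaATTTGCATaccacagggca
H2BC8 (chr6:26216718-26216747, minus strand): ttgaattctttATTTGCATgaaaggcctat
H2BC11 (chr6:27132824-27132853, minus strand): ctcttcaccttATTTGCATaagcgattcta
H2BC12 (chr6:27146886-27146915, minus strand): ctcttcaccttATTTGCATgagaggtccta

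Immediate early genes, which growth factors and stress induce within minutes, held 4 higher DEGs and no lower one among 29 tested. The higher share was 13.8%, beside 1.06% of all tested genes, and the median log2FC was 0.33. In DKO, 13 of the 29 lay wholly above and 2 wholly below the OGG1 knockout, beside 12.5% and 11.9% of all tested genes. EGR1 (chr5:138465479-138469303) was at 15.9 and 13.7 CPM in DKO and 6.80 and 7.61 CPM in the OGG1 knockout, a log2FC of 1.03 ± 0.24 (SE; edgeR adjusted p = 1). FOSB, an AP-1 subunit, was at 4.04 and 2.29 CPM against 1.55 and 1.42 CPM, and NR4A2, an orphan nuclear receptor, at 11.3 and 8.22 CPM against 4.93 and 3.63 CPM. EGR2 is given above. FOS, JUN, IER2 and MYC, of the same list, had log2FC of 0.11, 0.08, -0.07 and 0.04. Without DKO clone 4 only EGR2 was a DEG of the list, with EGR1, FOSB and NR4A2 at 0.92, 0.62 and 0.94, and without OGG1 knockout clone 22 NR4A2 was at 0.99. Without OGG1 knockout clone 1 the DEGs of the list were EGR2, DUSP2 and EGR3, with EGR1, FOSB and NR4A2 at 0.95, 1.15 and 1.43, and FOSB, at 1.02, lost the call without clone 22 too. The EGR1 promoter holds 2 CArG boxes, the site of serum response factor, shown here in capitals. A CArG box was in 2 of 21 promoters of the list and in 1.14% of all promoters.

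EGR1 CArG box, distal (chr5:138465364-138465393, plus strand): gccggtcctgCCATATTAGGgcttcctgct
EGR1 CArG box, proximal (chr5:138465386-138465415, plus strand): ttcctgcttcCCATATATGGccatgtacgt

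Among p53 targets, 2 of 28 tested genes were higher DEGs, GDF15 and PLK2, with a median of 0.18. In DKO, 10 of the 28 lay wholly above and 1 wholly below the OGG1 knockout, beside 12.5% and 11.9% of all tested genes. PLK2, a polo-like kinase, was at 8.03 and 7.17 CPM in DKO and 3.52 and 3.67 CPM in the OGG1 knockout, a log2FC of 1.08 ± 0.34 (SE; edgeR adjusted p = 1), and it was no DEG without DKO clone 4 (0.995) or OGG1 knockout clone 1 (1.04). The list median was 0.07 in the pair of clones 4 and 1 and 0.34 in the other. In the integrated stress response, 1 of 47 tested genes was a DEG, again GDF15, with a median of 0.05. Of NRF2 targets 1 of 28 was, the efflux pump ABCC2 at 1.86 and 2.2 CPM against 0.776 and 0.708 CPM, with a median of -0.06. ABCC2 lost the call with any 1 of the 4 libraries left out, with log2FC of 1.30 to 1.56.

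The TGF-beta superfamily list held DEGs of both directions, 2 higher DEGs, GDF15 and BMP6, and 1 lower, BMP7, of 27 tested, and a median of -0.07. BMP6 was at 1.41 and 1.27 CPM against 0.411 and 0.708 CPM and lost the call without DKO clone 4 (1.18), DKO clone 14 (1.30) or OGG1 knockout clone 1 (0.91). BMP7 is described above. Of 64 developmental transcription factors, 1 was a DEG. SOX21, a neural progenitor factor (chr13:94709622-94712545), was at 38.0 and 35.1 CPM in DKO and 19.5 and 15.8 CPM in the OGG1 knockout, a log2FC of 1.05 ± 0.25 (SE; edgeR adjusted p = 1), and it was no DEG without OGG1 knockout clone 22 (0.91) or DKO clone 4 (0.995). Of 13 glutathione transferases 1 was a DEG, GSTT2B, which rested on 12 and 12 counts against 4 and 2 and kept the call only without OGG1 knockout clone 1. Cholesterol synthesis genes held no DEG among 25. In DKO, 7 of them lay wholly below and 1 wholly above the OGG1 knockout, beside 11.9% and 12.5% of all tested genes, and their median was -0.20, with -0.22 and -0.21 in the pairs. Extracellular matrix genes held none among 32, with a median of -0.31 that was 0.29 against clone 22 alone. No DEG was in the lists of heat shock chaperones (21 tested), unfolded protein response (23), interferon-stimulated genes (29), hypoxia response and glycolysis (32), HOX clusters (33), YAP targets (21), metallothioneins (5), clustered protocadherins (26), mitochondrially encoded genes (15) or the epithelial (5) and mesenchymal (8) markers.

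**Figure D4:**
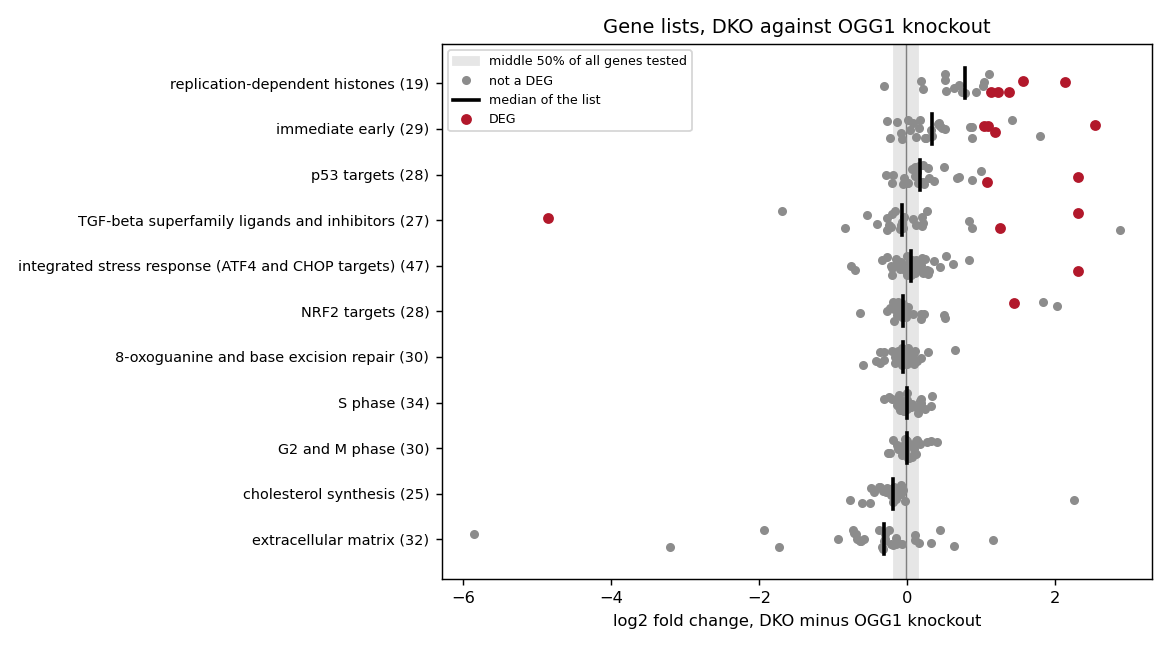
Log2FC of DKO against OGG1 knockout for the tested members of 11 lists, with the number tested in brackets. Black bars are list medians, red points DEGs, and the grey band the middle 50% of all tested genes. The histone list has the highest median (0.78), while the medians of the repair and cell cycle lists lie within the band.

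The treated WT libraries show which members of the DEG list also respond to an oxidant. The fold changes set side by side share no library. The untreated WT libraries, however, also enter the filter, the TMM factors and the pooled spread of the main fit. Of the 17881 genes, 91 (0.509%) were over 2-fold higher after H2O2 in both WT clones and 102 (0.570%) over 2-fold lower in both. Of the 189 genes higher in DKO, 19 (10.1%) were over 2-fold higher after H2O2 and 1 (0.529%) over 2-fold lower. Of the 69 genes lower in DKO, 0 were over 2-fold higher and 2 (2.90%) over 2-fold lower. Read from the other side, 20.9% of the 91 H2O2 genes were higher DEGs in DKO. Their median log2FC in DKO against OGG1 knockout was 0.84. Without DKO clone 4 it was 0.45, and 6 of 77 higher DEGs (7.79%) were among them. Leaving out any other library gave 15 to 19 genes.

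GDF15 had the largest H2O2 response of the 19, with log2 differences of 4.86 and 5.52 in WT clones 11 and 2, against 2.30 in DKO. DHRS2 had 2.39 and 3.58 after H2O2 and 2.69 in DKO, and EGR2 2.48 and 1.51 against 2.54. Others of the 19, chosen after their values were seen, were PTGS2, the inducible cyclooxygenase (3.19 and 3.91 after H2O2 against 2.68 ± 0.78 in DKO), CREB5 (4.27 and 5.11 against 1.48 ± 0.45) and RELB, an NF-kappaB subunit (2.01 and 3.57 against 1.41 ± 0.45; SE). PTGS2 was at 4.17 and 0.791 CPM in DKO, so its size rested on clone 4, with OGG1 knockout clones at 0.502 and 0.265 CPM. By contrast MET, POF1B, ZDHHC15 and EPHA6 differed by at most 0.31 in log2 in either WT clone after H2O2.

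**Figure D5:**
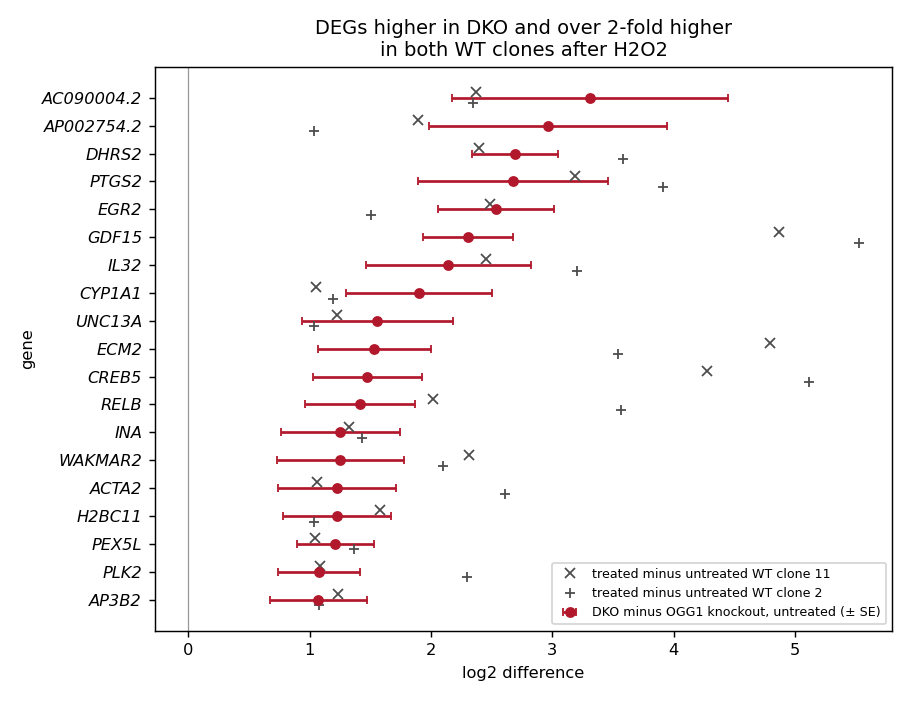
The 19 DEGs higher in DKO that were over 2-fold higher in both WT clones after H2O2. Red points are log2FC of DKO against OGG1 knockout with SE, crosses and plus signs the log2 difference of treated and untreated WT clones 11 and 2; GDF15, CREB5 and ECM2 responded more to H2O2 than they differed in DKO, while CYP1A1 and UNC13A did not.

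Whether the loss of MUTYH acts alike with and without OGG1 was asked with a contrast, the DKO change relative to the OGG1 knockout less the MUTYH knockout change relative to WT. For 358 genes it was beyond 1 with a P of 0.05 or less before adjustment (2.0% of 17881), and 252 of these were positive. The number was 216 if WT clone 2 was left out, 795 if WT clone 11 was, and 646 if MUTYH knockout clone 8 was. The contrast contains the change that chose the DEGs, so it is not counted over them. By the same criterion 73 of all tested genes (0.408%) were higher and 139 (0.777%) lower in the MUTYH knockout than in WT. Of the 189 higher DEGs of DKO, 7 were higher there and 20 lower. Of the 69 lower DEGs of DKO, 3 were lower there and 3 higher. Across all tested genes the changes correlated with r = -0.121, which is a description over genes from separate libraries.

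MET differed little between MUTYH knockout and WT (log2FC of -0.03), and its contrast was 1.33 (edgeR adjusted p = 1). EPHA6 and DNAH3 had contrasts of 4.58 and 3.85. EGR1 was lower in the MUTYH knockout, at 3.49 and 4.45 CPM in clones 7 and 8 against 13.4 and 10.7 CPM in WT clones 2 and 11, and higher in DKO than in the OGG1 knockout. H2BC7 had a log2FC of 2.15 in the MUTYH knockout against WT and 2.14 in DKO against the OGG1 knockout, and its contrast was -0.02. The gene that passed adjustment was THSD7B, chosen after its values were seen, at an edgeR adjusted p of 0.0179. It was near 0 only in the MUTYH knockout, with 0.233 and 0.220 CPM, and was no DEG of DKO against OGG1 knockout, at 11.5 and 9.63 CPM against 4.61 and 6.06 CPM.

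MGMT, the direct reversal repair enzyme for O6-alkylguanine, was a lower DEG outside the rule. It was at 0.317 and 0.0440 CPM in DKO, 0.776 and 0.752 CPM in OGG1 knockout clones, 3.28 and 4.59 CPM in WT clones and 7.45 and 13.6 CPM in MUTYH knockout clones. The order of the genotypes thus held in every library, although DKO rested on 7 and 1 counts, and the log2FC against the OGG1 knockout was -2.06 ± 0.71 (SE; edgeR adjusted p = 1). By chromosome the median log2FC of genes at 5 CPM or more lay between -0.05 (chromosome 19) and 0.06 (chromosome 20).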

How the data were processed

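RNA-seq libraries of untreated HAP1 clones (WT, MUTYH knockout, OGG1 knockout and DKO, 2 clones each) and of 2 treated WT clones were used. The authors aligned reads to GRCh38.p13 with HISAT2 2.2.1 and counted them per gene with featureCounts. The deposited values are whole-number counts that were not normalized, with totals of 22225091 to 22674964 per library. The tool versions come from the submitters' processing notes. The table held 59453 genes by symbol, of which 17881 passed filterByExpr. At this depth 1 CPM rests on about 22 counts, and counting error is only part of the spread between clones.

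Tests ran in edgeR 4.0.16 under R 4.3.3 (TMM, estimateDisp, quasi-likelihood F test with legacy=TRUE, 2-sided P) in 1 fit of the 8 untreated libraries, with 4 residual degrees of freedom. DEGs followed the study's criterion, a log2FC beyond 1 and an unadjusted P of at most 0.05, and Benjamini-Hochberg adjusted p values were taken over all tested genes. Log2 CPM used a prior count of 2. CPM were normalised with TMM factors. Treated WT libraries were compared with the untreated library of the same clone without a test. The scripts were tested on simulated counts. The replicates are clones, 2 per group.

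The pairs of clones 4 and 1 and of clones 14 and 22 do not come from the labels. Correlating deviations gave r of 0.22 to 0.446 over the 6 pairs of genotypes. The pairing was noted earlier in these counts, so these values describe it and are no separate check. Alternatives were DESeq2 size factors, the DESeq2 1.42.0 Wald test, legacy=FALSE, no filter, at least 10 counts in every library, the 4 libraries alone, blocks by library set or pair, and leaving out each library. Genes not reported here are left out of the named genes and of the counts of genes near 0 in single clones. The members and the gene lists were chosen with earlier results of these data known.

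Named genes were, per direction, the 10 DEGs of smallest P among those with no overlap of libraries and a mean of 1 CPM or more in at least 1 group, DEGs of 25 lists, the targeted genes, any gene past adjustment, and the 3 largest changes per direction that also passed a log2FC of 1 against clone 22. Positions are from GENCODE v44 on GRCh38, where 85.1% of tested genes matched by symbol. The annotation used for counting was another release, and reads of overlapping genes or of near-identical copies, histone genes and GSTT2B included, may be shared between them.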

Additional observations from a re-analysis of the deposited data

Results flagged for a closer look

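EGR1 moved in opposite directions with the loss of MUTYH in the 2 backgrounds: both DKO libraries lay above both OGG1 knockout libraries, and both MUTYH knockout libraries lay below both WT libraries. The difference of the changes was 2.63 on the log2 scale, with an edgeR P of 9.07e-05 and an adjusted p of 0.811.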

How the results depend on the processing

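The number of DEGs of DKO against OGG1 knockout was 258. It was 552 without a filter on low counts, 111 with at least 10 counts in every library, and 194 to 375 with single libraries left out. Genes after adjustment numbered 0, but 12 with the DESeq2 Wald test, and 0 with any single library left out. Against clone 22 the 375 DEGs became 205 with at least 10 counts and 176 to 759 without single DKO clones. The 358 genes of the contrast became 719 without a filter, 218 with at least 10 counts, and 216 to 795 with single libraries left out.

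The groups share no replicate number in the labels. The library sets, which hold the matched pairs set with the comparison and were noted earlier in these counts, were used as a block in place of a replicate block: 369 DEGs and 0 genes after adjustment in 8 libraries, 494 DEGs against clone 22, and 567 genes of the contrast. With matched pairs as a block in 4 libraries there were 497 DEGs and 108 genes after adjustment. The cause was not tested.

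Of the 41 named genes, none turned its direction while called under any alternative. Without DKO clone 4, 19 lost the call, and 5, 15 and 12 without DKO clone 14, OGG1 knockout clone 1 and OGG1 knockout clone 22. With DESeq2 5 did and with legacy=FALSE 1, while DESeq2 size factors, no filter and the block in 8 libraries ended no call. The fits of the 4 libraries alone, with and without the pairs as a block, ended none of the 40 named genes they tested, and SLC19A3 was not tested in them. Counts of list members were added as alternatives after seeing the data. P values of the main fit measure only the spread between the 2 clones of each group, pooled over the 8 untreated libraries. They do not allow for the descent of both DKO clones from OGG1 knockout clone 22, which is itself compared. Low counts limit the precision of genes under 1 CPM.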
